A study of Mus musculus with 24 samples.

Results

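The macrophage inflammatory protein chemokines measured here were Ccl3, Ccl4, Ccl6 and Ccl9 in mouse lung. They were chosen by symbol: every probe set annotated to exactly 1 of these 4 symbols was taken, which gave 6 of the 22690 probe sets on the array. Each gene was followed through the probe set with its highest mean level, so that the 4 genes stood among 12393 genes with 1 probe set each. These were 1419561_at for Ccl3 (Entrez gene 20302), 1421578_at for Ccl4 (20303), 1417266_at for Ccl6 (20305) and 1417936_at for Ccl9 (20308). A second probe set of Ccl6 (1420249_s_at) and of Ccl9 (1448898_at) served as a check.

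The lungs came from 24 female BALB/C mice aged 8 to 10 weeks, 3 in each of 8 groups, with 1 array per mouse. BALB/C is an inbred laboratory strain, and no group carried a transgene or deletion in the labels. The mice received saline, 20 ug of ovalbumin (OVA, an egg white protein used as a model allergen), 150 ug of a diesel exhaust particle sample, or a particle sample together with OVA. The 3 particle samples are labelled NDEP, ADEP and CDEP (N-DEP, A-DEP and C-DEP on the plots). Dosing was intranasal, on day 0 and again on day 13, and the lungs were removed 18 hours later. The labels mark the 4 OVA groups as sensitized and the other 4 as not sensitized. The comparisons ask how far each particle, OVA and their combination moved the chemokine transcripts.

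Ccl3 (MIP-1 alpha) and Ccl4 (MIP-1 beta) are secreted CC chemokines that draw monocytes, lymphocytes and granulocytes through receptors on those cells, and Ccl3 is a ligand of Ccr1. Ccl6 (C10) and Ccl9 (MIP-1 gamma) are rodent CC chemokines made largely by macrophages and other myeloid cells, and both act through Ccr1. Lung macrophages and recruited neutrophils and monocytes are known sources of the family during inflammation.

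The 4 genes lie in the CC chemokine cluster of chromosome 11, in the RefSeq order Ccl5, Ccl16-ps, Ccl9, E230016K23Rik, Ccl6, Gm38933, Rpl9-ps1, Ccl3 and Ccl4. The 250 bases before the RefSeq start of 3 of them (build GRCm38.p6, minus strand) are shown. The promoter set used held no entry for Ccl4. The regions are chr11:83649379-83649628 for Ccl3, chr11:83593088-83593337 for Ccl6 and chr11:83578637-83578886 for Ccl9. Capitals mark matches to the motifs searched, on either strand.
Ccl3: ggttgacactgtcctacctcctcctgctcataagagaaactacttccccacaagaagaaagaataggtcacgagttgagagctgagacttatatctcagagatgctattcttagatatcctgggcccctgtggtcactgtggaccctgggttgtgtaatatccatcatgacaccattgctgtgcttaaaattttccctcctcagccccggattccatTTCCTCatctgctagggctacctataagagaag
Ccl6: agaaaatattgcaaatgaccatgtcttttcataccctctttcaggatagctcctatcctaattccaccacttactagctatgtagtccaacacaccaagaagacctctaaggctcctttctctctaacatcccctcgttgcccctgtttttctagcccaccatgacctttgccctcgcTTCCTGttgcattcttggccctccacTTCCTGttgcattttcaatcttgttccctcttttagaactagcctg
Ccl9: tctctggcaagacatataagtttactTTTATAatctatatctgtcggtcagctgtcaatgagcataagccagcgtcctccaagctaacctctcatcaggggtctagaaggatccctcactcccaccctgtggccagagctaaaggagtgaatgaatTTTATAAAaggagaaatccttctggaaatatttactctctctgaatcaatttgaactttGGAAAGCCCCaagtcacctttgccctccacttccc

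The Ccl9 region held the TATA box letters TATAAA from -92 to -87 before the start, overlapping a match on the other strand from -94 to -89, with another from -224 to -219. These letters occurred in 12.4% of 32851 promoters of the same length. Ccl9 also held a match to the NF-kB consensus from -35 to -26, against 5.0% of promoters. The Ccl3 region held the ETS family letters GAGGAA from -33 to -28, against 23.3% of promoters. The Ccl6 region held CAGGAA, another ETS form, from -72 to -67 and from -46 to -41, against 25.7%. The AP-1 letters TGACTCA (4.46% of promoters) and the C/EBP palindrome TTGCGCAA (0.164%) were not found in these 3 windows. Ccl6 and Ccl9 shared the run GCCCTCCACTTCC of 13 bases, from -55 to -43 in Ccl6 and from -14 to -2 in Ccl9, which occurred in 5 promoters (0.0152%). Within Ccl6 the run CTTCCTGTTGCATT of 14 bases stood at -73 to -60 and again at -47 to -34, and was found in 1 promoter (0.00304%). A letter match is a description and does not show that a factor binds.

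Levels below are log2 of the deposited array intensity, and a difference of 1 on this scale is a doubling. Array medians ran from 72.2 to 75.5 intensity units. The lungs showed the markers of the labelled tissue, with Scgb1a1 between 13.79 and 14.15 and Sftpc between 13.35 and 13.87 on every array. Saline replicate 1 stood apart in RNA quality: the Gapdh signal of 3' over 5' control probe sets was 0.68 there, against 0.12 and 0.28 in the other saline lungs, and its mean lung marker level was 11.05 against 11.50 and 11.36. CDEP with OVA replicate 3 had the next highest Gapdh difference, 0.58. Results that rest on them are given without them below.

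Ccl3 was the member with the clearest separation. It read 4.62, 4.99 and 5.04 in the saline lungs and 4.61, 4.87 and 4.58 in the OVA lungs. It read 6.01, 6.56 and 6.76 after NDEP, 6.45, 5.51 and 6.01 after ADEP, and 5.91, 5.90 and 5.73 after CDEP. With OVA added the values were 5.72, 5.20 and 5.80 for NDEP, 6.18, 5.39 and 5.80 for ADEP, and 5.65, 5.92 and 5.08 for CDEP. All 18 lungs that received particles lay above all 6 that did not, the lowest at 5.08 (CDEP with OVA) and the highest of the others at 5.04 (saline). Of all genes tested, 94 of 12393 (0.758%) separated these arrays in that way. Without particles Ccl3 was dim: the OVA lungs read between the 18.9 and 23.1 percentile of the genes on their arrays, and 1 of them lay below the 25th percentile of all its probe sets. Dim probe sets are known to understate differences after RMA.

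Ccl4, encoded next to Ccl3, followed the same direction in smaller steps. Its values were 6.10, 6.64 and 6.78 in saline and 6.39, 6.30 and 6.58 in OVA lungs. They were 7.13, 7.29 and 6.87 after NDEP, 7.24, 6.72 and 6.89 after ADEP, and 7.07, 7.02 and 7.12 after CDEP. With OVA they were 6.79, 6.46 and 6.98 for NDEP, 7.16, 6.70 and 6.96 for ADEP, and 6.92, 7.12 and 6.56 for CDEP. The saline lungs spread widely (SD 0.36, n = 3), and 14 of the 18 particle lungs lay above all 6 others. The CDEP lungs were the tightest group (SD 0.05, n = 3).

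By its first probe set, Ccl9 rose to nearly the same level under every particle. It read 7.83, 7.76 and 8.05 in saline and 8.23, 7.20 and 8.50 in OVA lungs. It read 8.85, 9.17 and 9.18 after NDEP, 8.77, 8.89 and 9.04 after ADEP, and 8.91, 9.05 and 9.0 after CDEP. With OVA it read 8.46, 8.99 and 9.6 for NDEP, 9.31, 9.03 and 9.0 for ADEP, and 9.06, 9.17 and 8.72 for CDEP. Only NDEP with OVA replicate 1 fell within the range of the lungs without particles, so that 17 of 18 particle lungs lay above all 6 others. The 6 particle group means lay between 8.90 and 9.11.

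Ccl6 gave the most uneven picture. It read 9.02, 9.43 and 9.39 in saline and 9.36, 8.73 and 9.64 in OVA lungs. It read 10.32, 10.49 and 10.19 after NDEP, 9.43, 9.69 and 9.64 after ADEP, and 9.94, 10.01 and 10.16 after CDEP. With OVA it read 9.71, 10.44 and 11.32 for NDEP, 10.06, 10.00 and 10.09 for ADEP, and 9.77, 9.83 and 9.49 for CDEP. NDEP with OVA spanned the widest range of any group (SD 0.81, n = 3), while ADEP with OVA was narrow (SD 0.05, n = 3). In all, 16 of 18 particle lungs lay above all 6 others, the exceptions being ADEP replicate 1 and CDEP with OVA replicate 3. ADEP replicate 3 cleared the highest of the 6 by only 0.0028. The share of variance between the 8 groups was 79.2% for Ccl3, 73.6% for Ccl9, 69.2% for Ccl6 and 58.1% for Ccl4. Whole lung RNA was measured, so fewer cells of a type and less RNA per cell cannot be told apart.

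**Figure D1:**
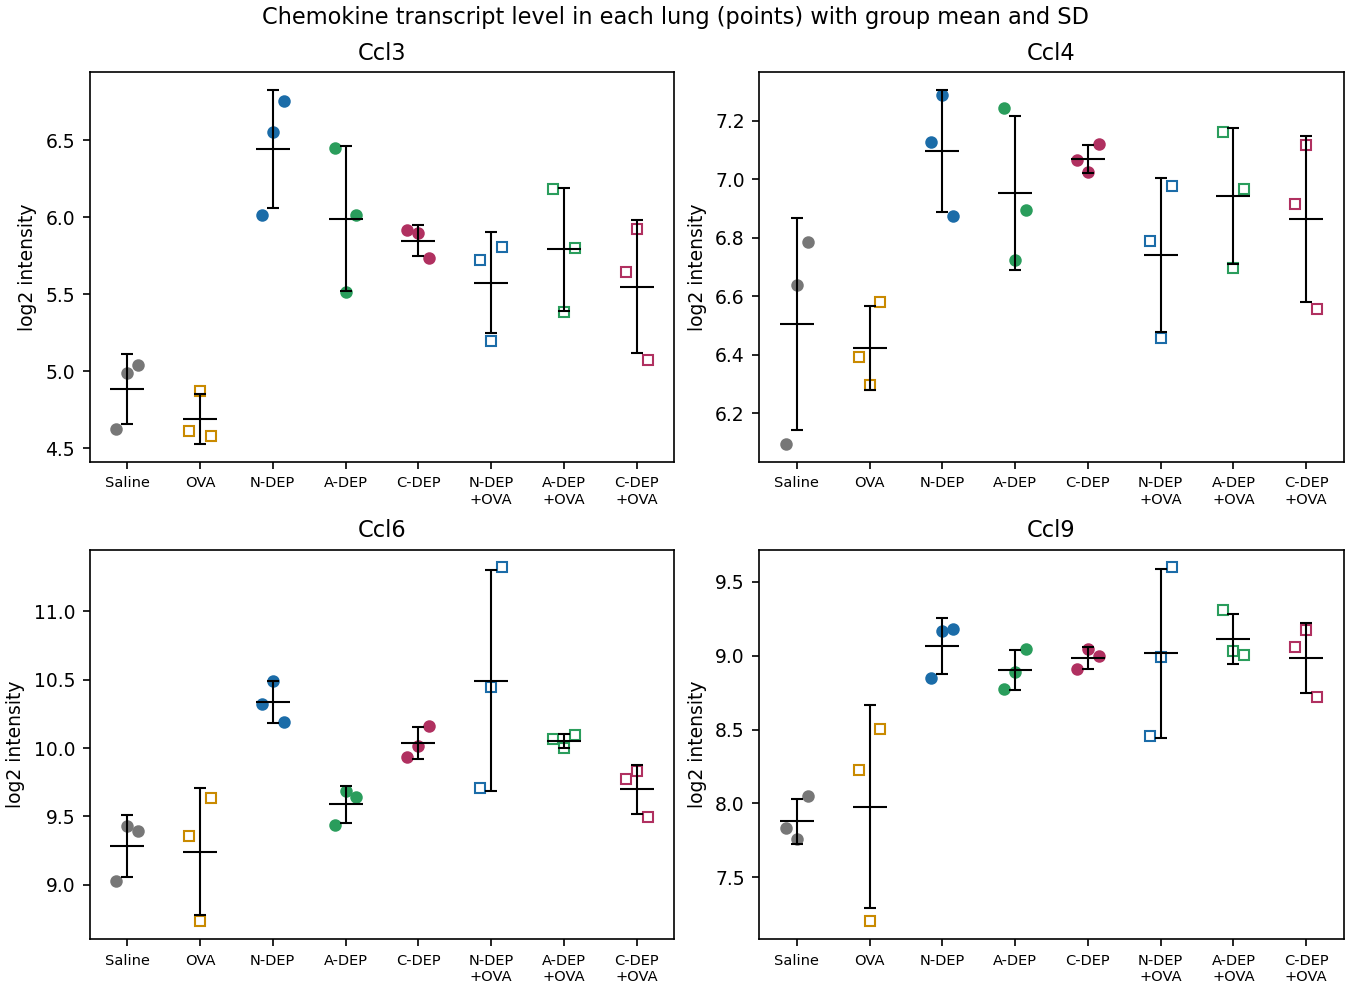
Log2 intensity (vertical axis) of Ccl3, Ccl4, Ccl6 and Ccl9 in each lung (points) of the 8 groups, with group mean and SD (bars, n = 3); open squares mark OVA groups. For Ccl3 all 18 particle lungs stand above all 6 lungs without particles, while Ccl6 in the NDEP and OVA group runs from 9.71 to 11.32.

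Each particle was tested against its control (saline, or OVA where the particle came with OVA) with limma moderated tests over all genes, and a gene was called at a Benjamini-Hochberg adjusted p under 0.05. Over the 6 comparisons 14 of 24 member values were called, all higher with particles. Ccl3 and Ccl9 rose in 6 of 6 comparisons, Ccl6 in 2 and Ccl4 in 0. At an unadjusted p under 0.05 the counts were 6, 6, 4 and 5. The 3 comparisons without OVA share the saline lungs and the 3 with OVA share the OVA lungs, so they are not independent of each other.

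After NDEP, 3 of 4 members rose against saline, where 2.25% of all genes rose and 0.452% fell. Ccl3 rose by 1.56 ± 0.23 (SE; 2.94-fold, adjusted p = 0.00032). Ccl9 rose by 1.19 ± 0.24 (2.28-fold, adjusted p = 0.0059) and Ccl6 by 1.05 ± 0.24 (2.07-fold, adjusted p = 0.0171). Ccl4 differed by 0.59 ± 0.17 without passing (adjusted p = 0.0701). The 3 NDEP lungs lay above all saline lungs for 4 of 4 members, against 10.8% of genes. The median change of the members was 1.12, against 0.00 over all genes.

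After ADEP, 2 of 4 members rose, where 1.16% of all genes rose and 0.492% fell. Ccl3 rose by 1.1 ± 0.23 (2.15-fold, adjusted p = 0.0173) and Ccl9 by 1.02 ± 0.24 (2.03-fold, adjusted p = 0.0281). Ccl4 differed by 0.45 ± 0.17 (adjusted p = 0.203) and Ccl6 by 0.31 ± 0.24 (adjusted p = 0.605). For 3 of 4 members, all but Ccl4, the groups did not overlap, against 10.7% of genes higher in that way. For Ccl6 the gap to the highest saline lung was only 0.0064.

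After CDEP, 2 of 4 members rose, where 2.28% of all genes rose and 1.76% fell. Ccl9 rose by 1.1 ± 0.24 (2.15-fold, adjusted p = 0.0125) and Ccl3 by 0.96 ± 0.23 (1.95-fold, adjusted p = 0.0224). Ccl6 differed by 0.76 ± 0.24 (adjusted p = 0.0799) and Ccl4 by 0.56 ± 0.17 (adjusted p = 0.0661), in both cases without passing. The CDEP lungs lay above all saline lungs for 4 of 4 members, against 10.9% of genes.

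With OVA in both arms, NDEP raised 3 of 4 members over OVA alone, where 1.74% of all genes rose and 0.331% fell. Ccl6 rose by 1.25 ± 0.24 (2.38-fold, adjusted p = 0.0053), Ccl9 by 1.04 ± 0.24 (2.05-fold, adjusted p = 0.0177) and Ccl3 by 0.89 ± 0.23 (1.85-fold, adjusted p = 0.0461). Ccl4 differed by 0.32 ± 0.17 (adjusted p = 0.53). Groups did not overlap for 2 of 4 members, Ccl3 and Ccl6, against 9.21% of genes.

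ADEP with OVA exceeded OVA for 2 of 4 members, where 0.629% of all genes rose and 0.0565% fell. Ccl9 rose by 1.14 ± 0.24 (2.2-fold, adjusted p = 0.0194) and Ccl3 by 1.1 ± 0.23 (2.15-fold, adjusted p = 0.0198). Ccl6 differed by 0.81 ± 0.24 (adjusted p = 0.156) and Ccl4 by 0.52 ± 0.17 (adjusted p = 0.205). The groups did not overlap for 4 of 4 members, against 11.1% of genes. CDEP with OVA likewise exceeded OVA for 2 of 4 members, where 3.62% of all genes rose and 1.17% fell. Ccl9 rose by 1.01 ± 0.24 (2.01-fold, adjusted p = 0.0131) and Ccl3 by 0.86 ± 0.23 (1.81-fold, adjusted p = 0.0323). Ccl6 differed by 0.46 ± 0.24 (adjusted p = 0.335) and Ccl4 by 0.44 ± 0.17 (adjusted p = 0.177). Groups did not overlap for 2 of 4 members, Ccl3 and Ccl9, against 12.8% of genes.

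**Figure D2:**
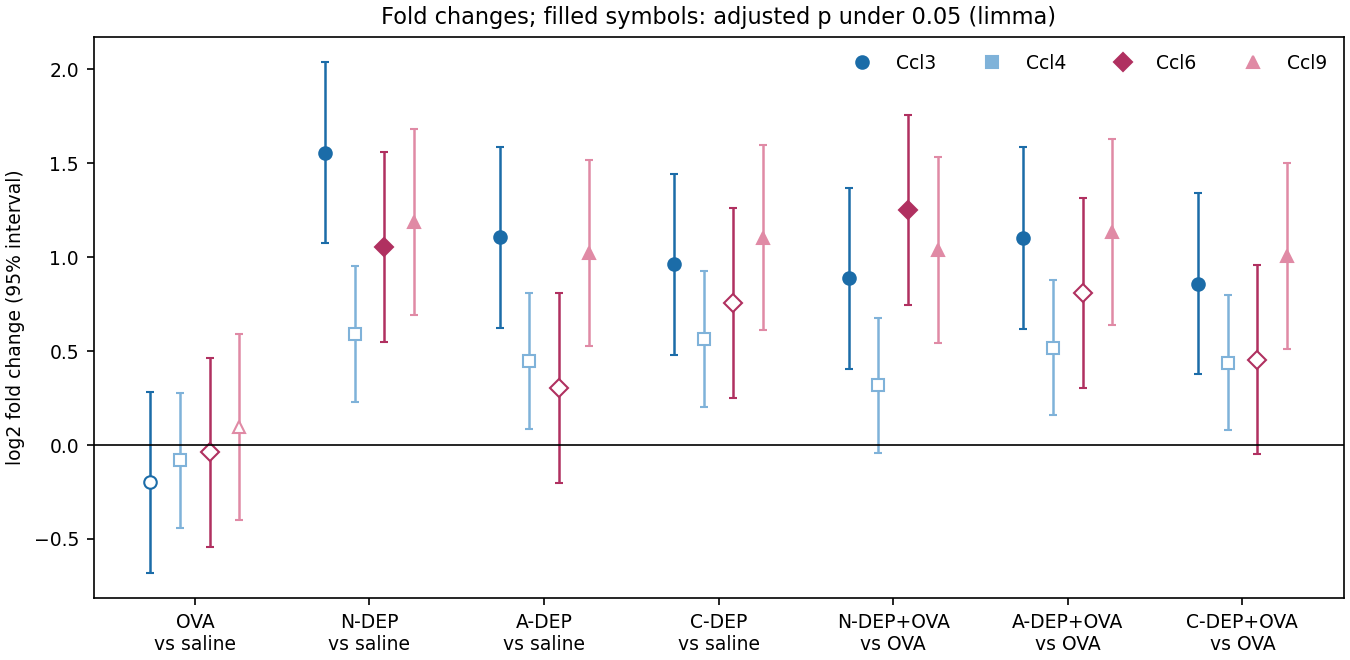
Log2 fold change (points) with 95% interval (bars) of the 4 chemokines in 7 comparisons with saline or OVA as control; filled symbols passed an adjusted p of 0.05 in limma. Ccl3 and Ccl9 are filled in 6 of 6 particle comparisons, Ccl4 in 0, and no symbol is filled for OVA against saline.

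Of the 14 calls, 2 held with any 1 of the 24 arrays left out: Ccl3 (1.40 to 1.77) and Ccl9 (1.12 to 1.29) in NDEP against saline. The other 12 were lost without at least 1 array, and the fold changes kept their sign in every such fit. Without OVA replicate 2, the OVA lung lowest in Ccl6 and Ccl9, 7 calls were lost. Ccl9 then fell short in all 3 comparisons with OVA, at 0.65 for NDEP, 0.75 for ADEP and 0.62 for CDEP. Ccl3 was then at 0.98, 1.19 and 0.95 in the same order, and Ccl6 at 0.99 for NDEP with OVA. Without saline replicate 1, 4 calls were lost: Ccl6 after NDEP (0.92), Ccl3 (0.97) and Ccl9 (1.00) after ADEP, and Ccl3 after CDEP (0.83).

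Single particle arrays mattered as well. The Ccl6 call after NDEP was lost without NDEP replicate 2 (0.97), and that for NDEP with OVA without NDEP with OVA replicate 3 (0.83), where Ccl9 was also lost (0.75). Ccl3 after ADEP was lost without ADEP replicate 1 (0.88) or 3 (1.09). Ccl9 after ADEP was lost without saline replicate 2 (0.96) or without ADEP replicate 1 (1.09), 2 (1.03) or 3 (0.95). After CDEP, Ccl3 was lost without CDEP replicate 1 (0.93), 2 (0.94) or 3 (1.02), and Ccl9 without CDEP replicate 2 (1.07).

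In the OVA comparisons, Ccl3 was lost without OVA replicate 1 or 3 in all 3 particles, at 0.85 and 0.83 for NDEP, 1.06 and 1.05 for ADEP, and 0.82 and 0.81 for CDEP. It was also lost without ADEP with OVA replicate 1 (0.90) or 3 (1.1), and without CDEP with OVA replicate 1 (0.81) or 2 (0.67). Ccl9 was lost without ADEP with OVA replicate 1 (1.04) or 2 (1.18), and without CDEP with OVA replicate 1 (0.97) or 2 (0.91). The Ccl3 call in NDEP with OVA lay nearest the threshold and was lost in 12 of the 24 fits. These included the fits without NDEP with OVA replicate 1 (0.81) or 3 (0.77). The same call was lost at an unchanged 0.89 without saline replicate 3, NDEP replicate 2, ADEP replicate 3, CDEP with OVA replicate 1, or any 1 CDEP array, which enter only through the shared spread. Ccl4 gained a call without saline replicate 3 after NDEP (0.73, adjusted p = 0.0407) and CDEP (0.70, adjusted p = 0.0493). Ccl6 gained a call without NDEP with OVA replicate 1 or 3 after CDEP (0.76) and in ADEP with OVA (0.81).

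Among the groups without OVA, the mean Gapdh difference was highest in saline. Among the groups with OVA it was lowest in the OVA control, close to ADEP with OVA. The spread was wide. The Gapdh difference averaged 0.36 ± 0.29 in saline, 0.14 ± 0.17 in NDEP, 0.26 ± 0.13 in ADEP and 0.06 ± 0.06 in CDEP lungs (SD, n = 3). It averaged 0.18 ± 0.16 in OVA lungs, and with OVA 0.37 ± 0.14 for NDEP, 0.2 ± 0.09 for ADEP and 0.4 ± 0.20 for CDEP. With the Gapdh and Actb differences as covariates, Ccl3 after CDEP fell short at 0.67 (adjusted p = 0.391), Ccl9 at 0.96 (adjusted p = 0.25), and after NDEP Ccl6 at 0.90 (adjusted p = 0.129) and Ccl9 at 1.1 (adjusted p = 0.0559). Without saline replicate 1 and CDEP with OVA replicate 3 together, calls were lost for Ccl6 after NDEP (0.92), Ccl3 (0.97) and Ccl9 (1.00) after ADEP, and Ccl3 after CDEP (0.83). Ccl4 then gained a call in CDEP with OVA (0.59, adjusted p = 0.0318). A trended robust variance ended the calls of Ccl9 after ADEP (1.02), Ccl9 in ADEP with OVA (1.14), and Ccl3 in NDEP with OVA (0.89) and CDEP with OVA (0.86), and with only the groups compared those of Ccl9 in all 3 comparisons with OVA and Ccl6 in NDEP with OVA were lost.

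Ordered by group mean, Ccl3 ran from NDEP (6.44) through ADEP (5.99), CDEP (5.85), ADEP with OVA (5.79), NDEP with OVA (5.58) and CDEP with OVA (5.55) to saline (4.89) and OVA (4.69). The only neighbours in that order whose lungs did not overlap were CDEP with OVA and saline. For Ccl9 the corresponding gap lay between ADEP (8.90) and OVA (7.98), and the groups above it overlapped their neighbours. Ccl4 had no gap between neighbours, from NDEP (7.10) to OVA (6.42). Ccl6 had 3 gaps: NDEP (10.34) above ADEP with OVA (10.05), CDEP (10.04) above CDEP with OVA (9.70), and ADEP (9.59) above saline (9.28). The last was by the 0.0064 given above. Such gaps are common with 3 lungs a group: 10.7% of genes were higher in ADEP than in saline without overlap. Likewise 14.3% were lower in CDEP with OVA than in CDEP. The share was not counted for the other neighbours. Sorting the same means set the neighbours, so the gaps are only a description.

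OVA alone left the members near saline. None of the 4 was called, at an unadjusted p under 0.05 also 0 of 4, and 0% of all genes were called. The difference from saline was -0.20 for Ccl3 (95% interval -0.68 to 0.28), -0.08 for Ccl4 (-0.44 to 0.28), -0.04 for Ccl6 (-0.55 to 0.47) and 0.10 for Ccl9 (-0.40 to 0.59). Ccl9 spread more among the OVA lungs (SD 0.69) than among the saline lungs (SD 0.15). These intervals leave room for changes of either sign.

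Adding OVA to a particle called 0 of 12 member values in limma, and 1 of 12 at an unadjusted p under 0.05. The shares of all genes called in either direction were 0.274% for NDEP, 0.0646% for ADEP and 3.58% for CDEP. The 1 value was Ccl3 in NDEP with OVA against NDEP, -0.87 ± 0.23 (95% interval -1.35 to -0.38, adjusted p = 0.134). The highest lung with OVA (5.80) lay below the lowest without (6.01), and 7.93% of genes were lower without overlap. Ccl4 differed there by -0.36 ± 0.17, Ccl6 by 0.16 ± 0.24 and Ccl9 by -0.05 ± 0.24. In ADEP lungs Ccl6 was higher with OVA without overlap (0.46 ± 0.24, adjusted p = 0.554; 8.3% of genes), and in CDEP lungs it was lower without overlap (-0.34 ± 0.24, adjusted p = 0.427; 14.3% of genes). Neither passed the test, and by the second Ccl6 probe set the CDEP lungs overlapped those with OVA.

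The particle by OVA interactions called 0 of 12 member values, with 0 at an unadjusted p under 0.05, where 0.0242% of all genes were called for NDEP, 0.0242% for ADEP and 0.371% for CDEP. The widest was Ccl3 with NDEP at -0.67 (95% interval -1.35 to 0.01, adjusted p = 0.809), followed by Ccl6 with ADEP at 0.50 (-0.21 to 1.22, adjusted p = 0.635). Each interval has room for an interaction as large as some of the particle effects themselves.

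Compared with each other, the particles called 0 of 24 member values over 6 pairs, with 3 at an unadjusted p under 0.05. The shares of all genes called in either direction without OVA were 0.00807% for NDEP against ADEP, 0% for NDEP against CDEP and 0% for ADEP against CDEP. With OVA they were 0.0161%, 0.00807% and 1.43% in the same order. Ccl6 was 0.75 higher after NDEP than after ADEP (95% interval 0.24 to 1.25, adjusted p = 0.999). Ccl3 was 0.59 higher after NDEP than after CDEP (0.11 to 1.08, adjusted p = 0.743). Ccl6 was 0.79 higher in NDEP with OVA than in CDEP with OVA (0.29 to 1.30, adjusted p = 0.466), and these lungs overlapped. Without NDEP with OVA replicate 1 that last difference was 1.19 (adjusted p = 0.0151). For the first Ccl9 probe set all 6 intervals spanned 0, the widest difference being 0.16 between NDEP and ADEP (-0.33 to 0.66).

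The second probe sets gave a mixed check. For Ccl6 the pair correlated at r = 0.927 over the 24 arrays, which share groups and libraries. The second one gave 1.04 after NDEP and 1.23 in NDEP with OVA, both called, and no other call. For Ccl9 the pair correlated at r = 0.868, and the second probe set kept 1 of the 6 calls, after CDEP (1.2). It gave 0.90 after NDEP (adjusted p = 0.0906), 0.57 after ADEP (adjusted p = 0.335), 1.02 in NDEP with OVA (adjusted p = 0.0616), 0.80 in ADEP with OVA (adjusted p = 0.233) and 0.92 in CDEP with OVA (adjusted p = 0.0643). Its saline lungs spread more (SD 0.41, against 0.15 for the first). Group means of the second Ccl9 probe set were 6.96 after NDEP, 6.63 after ADEP and 7.26 after CDEP. With OVA they were 7.20, 6.98 and 7.10 in the same order. Its ADEP lungs (6.30 to 6.92) overlapped saline (highest 6.46) and lay below the CDEP lungs (lowest 7.21). The Ccl9 calls, and the nearly equal level under every particle, thus depended on the probe set.

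Within groups, Ccl3 and Ccl4 varied together, and Ccl6 and Ccl9 did so most closely with the OVA and NDEP with OVA groups included. Each lung was expressed as its deviation from its group mean, which removes the treatment. Over these 24 deviations r was 0.86 between Ccl6 and Ccl9 and 0.68 between Ccl3 and Ccl4, but 0.03 between Ccl3 and Ccl6 and 0.14 between Ccl3 and Ccl9. Ccl4 gave 0.41 with Ccl6 and 0.35 with Ccl9. The points share the array, its RNA and its scaling, and deviations within a group of 3 are not independent. Over the undivided 24 arrays r was 0.85 for Ccl3 and Ccl4, 0.82 for Ccl6 and Ccl9, and 0.54 for Ccl3 and Ccl6. The widest Ccl6 deviations came from NDEP with OVA replicate 3 (0.83) and replicate 1 (-0.78), where Ccl9 deviated by 0.58 and -0.56 and Ccl3 by 0.23 and 0.15. OVA replicates 2 and 3 held the next widest. Without these 2 groups, over 18 lungs, r fell to 0.45 for Ccl6 and Ccl9 and was 0.7 for Ccl3 and Ccl4, 0.59 for Ccl3 and Ccl9, 0.59 for Ccl4 and Ccl6, 0.37 for Ccl4 and Ccl9, and 0.18 for Ccl3 and Ccl6. The high r of Ccl6 with Ccl9 thus depended on including those groups, as may the likeness to other genes over deviations given below. Those groups were picked for their wide Ccl6 spread, and a narrower spread by itself tends to lower r.

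**Figure D3:**
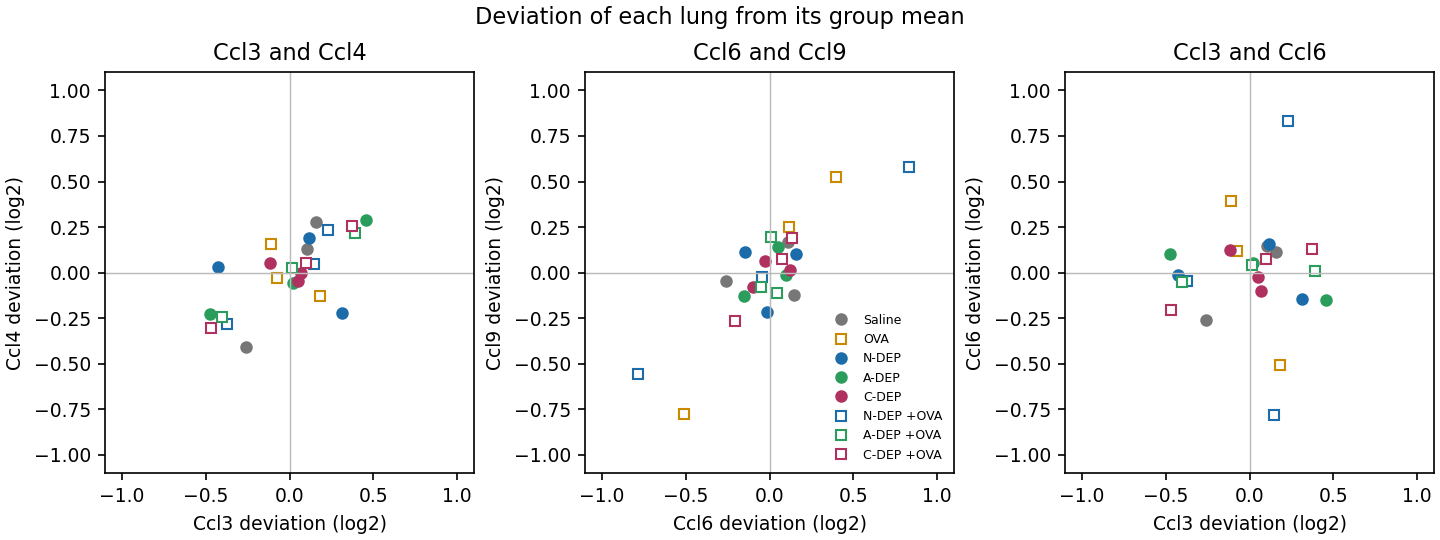
Deviation of each lung from its group mean (log2, both axes) for 3 pairs of chemokines, 24 points each, coloured by group with open squares for OVA groups. Ccl3 and Ccl4 vary together (r = 0.68), and Ccl3 and Ccl6 do not (r = 0.03). For Ccl6 and Ccl9 r is 0.86, and 0.45 without the OVA and N-DEP with OVA groups, which hold the widest Ccl6 deviations.

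The genes most like each member were as follows. Over the 24 arrays, the 3 genes of highest Pearson r with Ccl3 were Clec4d (0.90), a myeloid C-type lectin, Il1r2 (0.89), the decoy receptor of interleukin 1, and Hcar2 (0.89), a niacin receptor of myeloid cells. For Ccl4 they were Hcar2 (0.87), Lrg1 (0.86) and Il1r2 (0.85). For Ccl6 they were the chemokine Ccl22 (0.91), the galectin Lgals3 (0.89) and the integrin Itgax (0.88), which marks alveolar macrophages and dendritic cells. For Ccl9 they were the B cell chemokine Cxcl13 (0.94), Ch25h (0.91), which makes an oxysterol, and the phagocyte oxidase subunit Ncf4 (0.90). Over deviations from group means the leading genes were Il1rn (0.91), Clec4d (0.86) and Dhx38 (0.78) for Ccl3, and Hcar2 (0.80), Dhx38 (0.80) and Itpk1 (0.79) for Ccl4. For Ccl6 they were Itgax (0.92), Lgals3 (0.89) and Ccl9 (0.86), and for Ccl9 they were Ch25h (0.87), Ccl6 (0.86) and Itgax (0.84). By Spearman's rho over the 24 arrays the first gene was Cd14 (0.89) for Ccl3, Ccl3 (0.86) for Ccl4, Ccl22 (0.91) for Ccl6 and Myc (0.92) for Ccl9.

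The receptors described here are Ccr1, Ackr2, Ccr3 and Ccr1l1. Ccr1, which binds Ccl3, Ccl6 and Ccl9, read 5.40, 5.51 and 5.41 in saline and 5.92, 5.56 and 6.20 in OVA lungs. It read 6.56, 7.02 and 7.23 after NDEP, 6.68, 6.33 and 6.98 after ADEP, and 6.96, 7.04 and 6.50 after CDEP. With OVA it read 7.35, 6.75 and 7.44 for NDEP, 6.97, 6.71 and 6.56 for ADEP, and 7.27, 7.73 and 6.71 for CDEP. As with Ccl3, all 18 particle lungs lay above all 6 others. Ccr1 rose by 1.5 ± 0.23 after NDEP (adjusted p = 0.000338), 1.23 after ADEP (adjusted p = 0.00754) and 1.40 after CDEP (adjusted p = 0.00116). Over OVA it rose by 1.29 with NDEP (adjusted p = 0.00199) and 1.34 with CDEP (adjusted p = 0.000671), and differed by 0.85 with ADEP (adjusted p = 0.0915). The call after ADEP was lost without saline replicate 1 (1.21) or ADEP replicate 3 (1.07), and that after CDEP with RNA quality covariates (1.13, adjusted p = 0.145). Ccr1 for ADEP with OVA gained a call without CDEP with OVA replicate 3 (0.85, adjusted p = 0.0426), with array weights (0.81), with only the groups compared (0.85), and with heart and fat covariates (1.24).

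The other receptors were not called in any of these 6 comparisons. Ackr2, a decoy receptor that clears inflammatory CC chemokines, had group means between 7.28 (ADEP) and 7.71 (ADEP with OVA), and its widest difference from a control was -0.37 after ADEP (adjusted p = 0.181). Ccr3, the eosinophil receptor, stayed between 3.76 and 4.13, below the 25th percentile on 24 of 24 arrays. The receptor-like Ccr1l1 was below it on 22 of 24.

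**Figure D4:**
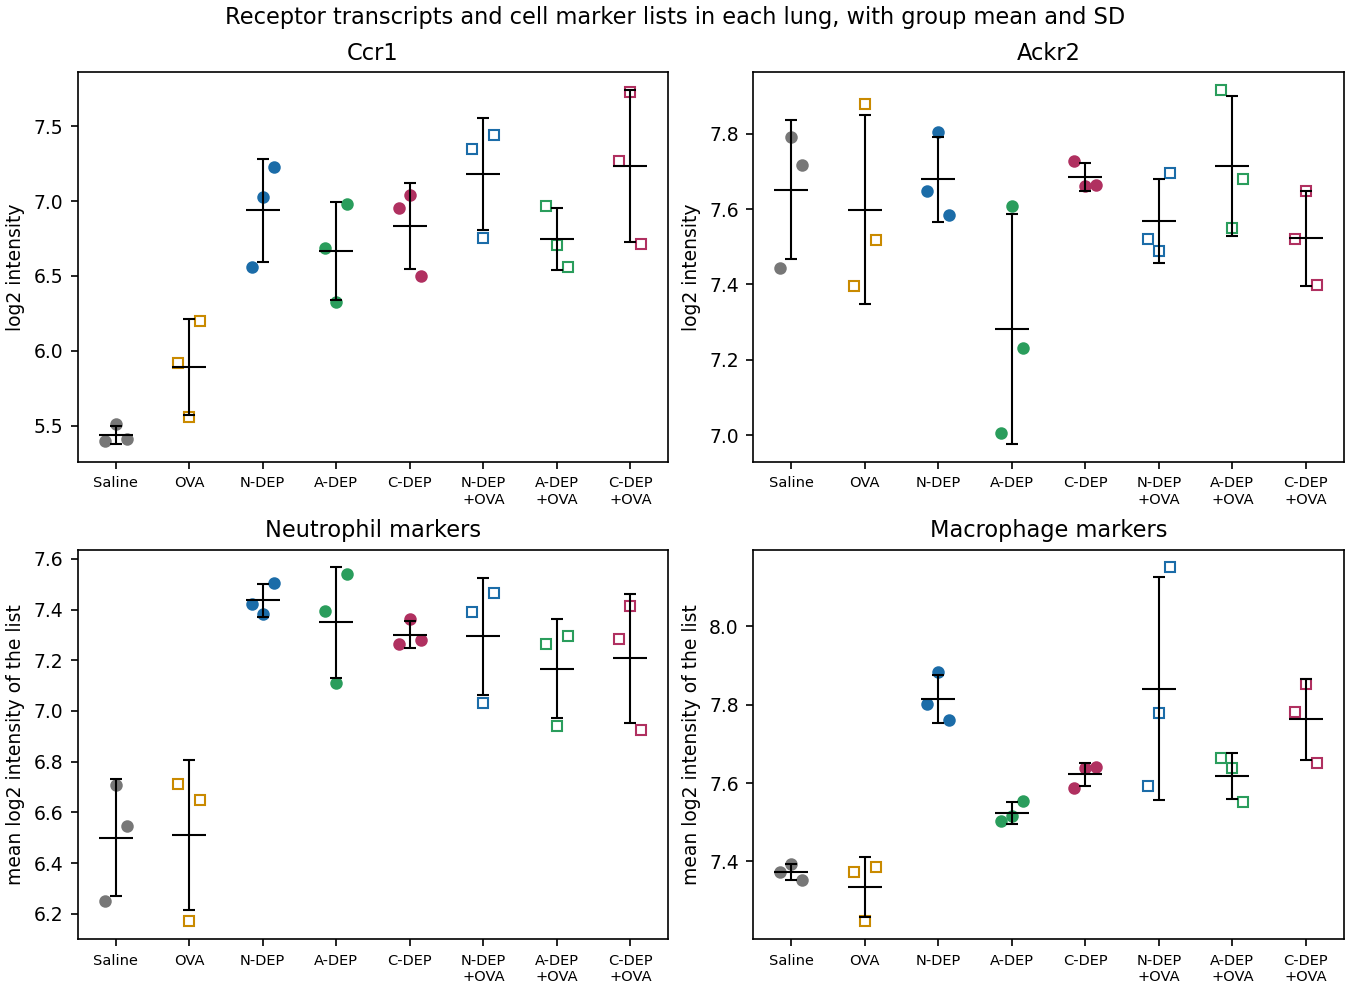
Log2 intensity of the receptors Ccr1 and Ackr2, and mean log2 intensity of the neutrophil and macrophage marker lists, in each lung (points) of the 8 groups with group mean and SD (bars, n = 3). All 18 particle lungs stand above the others for Ccr1, Ackr2 shows no such step, and the group means of both lists are lowest in saline and OVA lungs.

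Some other CC chemokines were also called higher with particles. Of 14 measured, 6 rose after NDEP, 2 after ADEP and 4 after CDEP, and with OVA 6, 7 and 8 in the same order, with 0 lower in each. Their medians were 0.36, 0.08 and 0.28 without OVA and 0.57, 0.60 and 0.55 with it, against medians between -0.02 and 0.03 over all genes. After NDEP the leading ones were the T cell chemokines Ccl17 (1.14 ± 0.18) and Ccl22 (0.74 ± 0.13), Ccl20 (0.78 ± 0.14) and the monocyte chemokine Ccl2 (0.97 ± 0.22). Over OVA the eosinophil chemokine Ccl11 led, at 0.95 with NDEP, 1.17 with ADEP and 1.39 with CDEP.

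Among 29 measured inducers and signalling genes of CC chemokine transcription, 8 rose after NDEP, 4 after ADEP and 5 after CDEP, and with OVA 2, 2 and 8, with 0 lower in each. The list medians were 0.21, 0.18 and 0.28 without OVA and 0.22, 0.17 and 0.21 with it. After NDEP they were led by the growth factor Csf2 (1.27 ± 0.13), Nfkbiz (0.81 ± 0.12), an inducible regulator of NF-kB targets, the endotoxin co-receptor Cd14 (1.31 ± 0.23) and Tlr2 (0.69 ± 0.14). Csf2 rose by 0.72 after ADEP and 1.02 after CDEP. With CDEP and OVA the leading genes were Bcl3 (0.72 ± 0.15), Csf1 (0.51 ± 0.11), Il1b (1.17 ± 0.25) and Relb (0.58 ± 0.13).

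Of 13 neutrophil markers, 7 rose after NDEP, 5 after ADEP and 7 after CDEP, and 4 with each particle and OVA. Their summed intensity ran from 1862 to 2973 in saline and 1454 to 3277 in OVA lungs. It ran from 7261 to 7939 after NDEP, 5442 to 7298 after ADEP, 6563 to 7186 after CDEP, and 4420 to 7037 over the particle groups with OVA. Lcn2 had the highest median level of the list (11.62 on the log2 scale), so it weighs heavily in this sum. By the mean log2 level of the list, the lowest particle lung was at 6.93 (CDEP with OVA replicate 3). The highest lung without particles was at 6.71 (OVA replicate 1). Lcn2, an iron-binding granule protein, rose by 2.45 ± 0.36 after NDEP, and Cd177 by 2.57 ± 0.41.

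Of 14 macrophage markers, 3 rose after NDEP, 0 after ADEP and 2 after CDEP, and with OVA 6, 0 and 6. Their summed intensity ran from 8809 to 11103 in saline, 11632 to 12842 after NDEP, 9634 to 10614 after ADEP and 10670 to 11069 after CDEP. It ran from 9976 to 10382 in OVA lungs, 10230 to 13619 in NDEP with OVA, 10299 to 11225 in ADEP with OVA and 9559 to 11185 in CDEP with OVA. Only the NDEP lungs lay clear of their control by this sum, in which the bright Lyz2 (12.41 to 13.08 on the log2 scale) weighs most. By the mean log2 level of the same list, every particle lung lay above every lung without particles. The lowest particle lung was at 7.50 (ADEP replicate 1) and the highest of the others at 7.39 (saline replicate 2). After NDEP the complement genes C1qb (1.13 ± 0.16), C1qc (1.09 ± 0.16) and C1qa (0.98 ± 0.14) rose. In NDEP with OVA Itgax (1.24 ± 0.19) and Cd68 (1.43 ± 0.26) rose, the group in which Ccl6 spread most. Of 7 monocyte markers 2, 1 and 2 rose after the particles and 1 with each particle and OVA. They were led by Ccr2 and Cd14 without OVA. With it they were led by Chil3 (2.32 with NDEP, 2.43 with CDEP) or Vcan (0.56 with ADEP). Others of the list leaned lower without being called: F13a1 after NDEP (-0.21) and CDEP (-0.24), and Chil3 (-0.81) and Fn1 (-0.20) after ADEP. With OVA, Cx3cr1 and F13a1 leaned lower with NDEP (-0.18 and -0.40) and CDEP (-0.22 and -0.12), and Cx3cr1 with ADEP (-0.03). The part of cell numbers in the chemokine differences was not tested.

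Of 6 eosinophil markers 0 were called in any of these comparisons, and Epx and Prg2 were below the 25th percentile on 24 of 24 arrays. Of 15 lymphocyte and NK markers, Gzmb alone was called, higher in CDEP with OVA (0.82 ± 0.17). Of 7 dendritic cell markers, Ccr7 rose after NDEP (0.60 ± 0.15), and Cd83 in NDEP with OVA (0.84 ± 0.18) and CDEP with OVA (0.86 ± 0.18). Of 6 mast cell markers 0 were called. Of 7 fat markers, Cidec fell after NDEP (-0.53 ± 0.13), though it was below the 25th percentile on 22 of 24 arrays. The brighter Adipoq (-1.73, adjusted p = 0.0874) and Fabp4 (-1.09, adjusted p = 0.308) differed there without passing, and Cidea stood at 0.02. Of 13 lung tissue markers, 2 rose after NDEP, 1 rose and 2 fell after ADEP, and 1 rose and 1 fell after CDEP, led by the surfactant protein Sftpd after NDEP (0.96 ± 0.14), with 0 called over OVA. Heart muscle markers had medians of -0.68 in NDEP with OVA and -0.97 in CDEP with OVA: of 13, 1 fell after NDEP and 1 after CDEP, and with OVA 3 with NDEP, 0 with ADEP and 9 with CDEP. With the heart and fat marker levels as covariates, Ccl3 (1.01, adjusted p = 0.0548) and Ccl9 (0.98, adjusted p = 0.0755) lost their calls after ADEP, and the other 12 member calls held.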

How the data were processed

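RNA from whole lung was hybridised to Affymetrix arrays of 1 colour, 1 for each of 24 mice. The authors normalized the deposited intensity values with RMA, per the submitters' processing notes; its settings are not stated there. The values (5.98 to 18195.5) lie on a linear scale, so log2 was taken, as the design allowed. Of 22690 probe sets, 20380 had 1 gene symbol, and 12393 genes entered with the probe set of highest mean. Dim probe sets were kept, and no spot background was analysed here, so the number of arrays and dim signals limit the precision.

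limma 3.58.1 (R 4.3.3) fitted 8 group means to all 24 arrays across all genes, with 16 residual and 8.16 prior degrees of freedom. Moderated tests were two-sided, with Benjamini-Hochberg adjustment in each of the 19 comparisons separately and a threshold of 0.05. The fit was tested on simulated data. The members and gene lists were chosen with earlier results of these data known. Named genes were the 4 members, every measured receptor, at most 4 genes of each list by smallest p (marker lists also by level), and the 3 genes of highest r with each member. The 3 mice of a group are separate animals per the series design. The highest correlation between any pair of arrays was 0.996, and no pair shared over 0.0353% of values. Promoters are the RefSeq sequences of 3 members (GRCm38.p6), and the promoter set used held none for Ccl4. Alternatives were all probe sets, the other probe sets, a filter at the 25th percentile, a trended robust variance, quantile normalization, a replicate block, only the groups compared, array weights, covariates, and leaving out each array. The fit without 2 arrays, the correlations without 2 groups and the differences of OVA effects between particles were chosen after seeing the data.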

Additional observations from a re-analysis of the deposited data

Results flagged for a closer look

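By the first Ccl6 probe set, the effect of OVA ran in opposite directions in the ADEP and CDEP lungs, with every lung on its side. Adding OVA to ADEP gave 0.46 on the log2 scale, all 3 lungs with OVA lying above all 3 without. Adding OVA to CDEP gave -0.34, all 3 lungs with OVA lying below all 3 without. Of all genes, 8.3% were higher without overlap in ADEP with OVA, and 14.3% were lower in CDEP with OVA. The item was flagged because the lungs with OVA lay wholly on opposite sides of their control means. The separation of the lungs is therefore no added support. The difference between these effects was 0.80 ± 0.35 (SE) with a limma adjusted p of 0.232 over all genes. It was 1 of 12 such differences computed for the 4 chemokines, none of which passed the adjusted threshold. With each lung left out in turn, the Ccl6 effect ran from 0.39 to 0.51 in ADEP and from -0.41 to -0.24 in CDEP lungs. The second Ccl6 probe set also separated the ADEP lungs (7.81 to 8.09) from those with OVA (8.18 to 8.54). Its CDEP lungs (8.34 to 8.57) overlapped those with OVA (8.21 to 8.44), with means of 8.42 and 8.32.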

How the results depend on the processing

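Over 3268 recomputed values, 3058 kept their direction and their side of the threshold, 75 lost a call, 15 gained one and 0 called values changed sign, while 120 uncalled values did. The number of the 4 members called higher went from 3 to 1 for NDEP against saline with RNA quality covariates. For ADEP against saline it went from 2 to 1 with the other probe set or a trended robust variance, and to 0 with heart and fat covariates or without the 2 arrays of highest Gapdh difference. For CDEP against saline it went from 2 to 0 with RNA quality covariates and to 1 without those 2 arrays. With only the arrays of the groups compared, which leaves fewer lungs to estimate the spread, it was 1 for NDEP, ADEP and CDEP with OVA; with the other probe set or a trended robust variance it was 1 for ADEP and CDEP with OVA. The cause was not tested. With 1 array left out the count ran from 2 to 4 for NDEP, 0 to 2 for ADEP and 0 to 3 for CDEP, and with OVA from 0 to 3, 0 to 3 and 0 to 2. For NDEP with OVA against CDEP with OVA it ran from 0 to 1, and for the other comparisons it was 0 throughout.

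The number of all genes called moved more: 335 after NDEP (126 with RNA quality covariates, 718 with array weights, 152 without saline replicate 1), 205 after ADEP (33 without the 2 arrays, 718 with array weights, 8 without ADEP replicate 3) and 501 after CDEP (3 with RNA quality covariates, 1450 with array weights, 144 without CDEP replicate 2). It was 0 for OVA alone (12 with array weights), and with OVA 257 for NDEP (102 with only the groups compared, 400 with array weights, 78 without NDEP with OVA replicate 3), 85 for ADEP (313 with array weights, 18 without OVA replicate 2) and 594 for CDEP (389 with heart and fat covariates, 1055 with array weights, 217 without CDEP with OVA replicate 2).

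Replicate numbers were not taken to pair the lungs: deviations of same-numbered lungs correlated at 0.0312 on average (-0.32 to 0.35), over 0.1 in 27 of 84 pairs, against -0.0156 for different numbers. That 14 of 24 lungs were closest to their own number is a hint of shared variation from the data, not the design. With the replicate block, Ccl3 in NDEP with OVA against OVA lost its call (0.89, adjusted p = 0.0521), leaving 2 members called there, and no other member call changed.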
